A study of Xenopus laevis with 35 samples.

Results

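The comparison set the brains of Xenopus laevis tadpoles exposed to MMI against those of tadpoles exposed to PTU for the same length of time. Its members were the 9 arrays labelled MMI and the 9 labelled PTU, 18 of the 35 arrays of the series, with 3 arrays for each compound at the 3 times. They were chosen by treatment and time alone, and no control array entered the main values given here. Among the other settings, a refit with all 35 arrays is the exception. MMI stands for methimazole and PTU for propylthiouracil, names taken as background since the labels give the short forms.

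Both compounds are thionamides, which block thyroid peroxidase, the enzyme that adds iodine to thyroglobulin, and so stop the gland from making thyroid hormone. Thyroid hormone drives amphibian metamorphosis, and the tadpole brain answers it with cell division, neuronal differentiation and myelination. MMI carries its thiourea group in an imidazole ring and PTU in a pyrimidine ring, and in mammals PTU also blocks a deiodinase that converts thyroid hormone outside the gland.

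Tadpoles entered exposure at Nieuwkoop and Faber stage 54, before the main rise of thyroid hormone, and were kept continuously in MMI at 100 mg/L or PTU at 20 mg/L. The concentrations differed and only 1 of each was used, so a difference between compounds and a difference between concentrations cannot be told apart. Per the labels' protocols, 10 tadpoles were taken for each treatment and time, 5 from each of 2 tanks, and RNA was combined into 3 separate pools. Each array stands for a pool, so the p-values measure the spread between pools, and animals of a tank may sit in several pools. With 2 tanks for each treatment and time, a difference between compounds and a difference between tanks cannot be fully told apart. The same protocols report that these exposures had enlarged the thyroid gland by day 8 and delayed metamorphosis at day 14 in earlier work. The comparison asks where the brain transcripts of tadpoles under the 2 inhibitors differ.

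Each array held 898 spots, 2 neighbouring spots for each of 449 probes, read as 32P intensities after a background had been subtracted. Intensities below are means of the paired spots, scaled so that all arrays share the median of the 39 probes that lay above background on all 18 arrays. Whether groups overlapped was judged on these scaled intensities. A probe counted as above background on an array where it exceeded 2 SDs of that array's negative values. A change is the log2 value with MMI minus that with PTU, after an offset of 609 units, the median background SD, was added to the scaled intensity, so a negative change means less signal with MMI. The offset makes the changes of dim probes smaller than their ratio of intensities. Each probe was tested with limma over all 18 arrays, and a call is an adjusted p under 0.05 after the Benjamini-Hochberg method over all probes tested at that time.

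The brain markers on the array, 4 of the 16 listed, were above background on 16 to 18 of the 18 arrays, which are gap43.S, tubb4b.L, msi1.S and mbp.S. Of 9 pituitary markers 2 were present, gh1.S (growth hormone) above background on 17 arrays and prl.1.L (prolactin) on 1. The globin hbd.S was above background on 4 arrays, the gut gene fabp2.L on 2 and the retinal gene crx.L on 0, and no muscle or epidermis marker was on the array. MMI at 96 h replicate 2 stood apart with 241 probes above background, against 86 to 138 on the other MMI arrays and 104 to 154 on the PTU arrays. No 2 of the 18 arrays correlated above 0.960 over spots.

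Few probes separated MMI from PTU, and those that did so by the test lay almost all at 96 h. At 24 h 0 of 442 probes were called (0%), with 49 at an unadjusted p under 0.05, and at 48 h 0 of 441 (0%), with 22 at an unadjusted p under 0.05. At 96 h limma called 15 of 440 probes (3.41%), 10 with more signal under MMI (2.27%) and 5 with less (1.14%). Averaged over the times, 1 of 436 was called (0.229%), hmgn3.L, with less signal under MMI. Adjusted p-values cover the probes of 1 comparison and were not adjusted over the comparisons. The median SE of a change was 0.48 at 24 h and 0.27 for the mean over times, so a difference of 1 on the log2 scale at a single time is only about 2 SEs for a typical probe.

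The gene with the steadiest difference was hmgn3.L, which encodes a nucleosome-binding protein of the high mobility group that loosens chromatin. Its scaled intensity with MMI was 27113, 23859 and 37684 at 24 h, 27156, 19989 and 26893 at 48 h, and 27546, 31458 and 39015 at 96 h. With PTU it was 42838, 39135 and 66796 at 24 h, 56437, 119958 and 72137 at 48 h, and 82661, 84568 and 62711 at 96 h. Under the main scaling every MMI array was thus below every PTU array, the nearest pair being 39015 and 39135. That scaling divided MMI at 48 h replicate 3 by 2.65 and PTU at 48 h replicate 3 by 0.92. Before scaling, this MMI array was above this PTU array, so the separation depends on the scaling. No other probe of the 436 had scaled groups that did not overlap with MMI lower at all 3 times (1 of 436, 0.229%), and 0 had them with MMI higher at all 3 times (0%). The mean over arrays was 28968 ± 6153 with MMI and 69693 ± 24520 with PTU (SD, n = 9 each). The change was -0.72 at 24 h, -1.66 at 48 h and -1.22 at 96 h, not called at any single time (limma adjusted p = 0.439, 0.0735 and 0.0604). For the mean over times it was -1.20 (SE 0.20, 95% interval -1.63 to -0.78, limma adjusted p = 0.00605).

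The call on hmgn3.L depended on several choices of processing. The 29 other settings included 18 fits that left out 1 array, and the call held in all of those. It was lost under 7 of the remaining settings, which changed the processing. These were the second spot alone (change -1.09, limma adjusted p = 0.0578), the 5th percentile of positive values as offset (-1.22, adjusted p = 0.0949), a generalised log2 without a floor (-1.22, adjusted p = 0.123), the replicate number as a block (-1.20, adjusted p = 0.0823) and the 3 other scalings. Among the scalings it was lost with the arrays as deposited (change -1.12, adjusted p = 0.118), scaled on the median of all probes (-0.91, adjusted p = 0.291) or quantile normalized (-0.42, adjusted p = 0.423). The change was negative in all 7. Hmgn3.L was itself among the 10 brightest probes, whose difference between the compounds is described next. The chromatin list, chosen by gene function, held 12 probes of 10 genes, and 6 of the 12 had a negative mean change. Another of its members, dnmt1.L, was called at 96 h and is described below.

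The median of the 10 brightest probes was on average higher on the PTU arrays before any quantile normalization. The median of the 10 brightest probes, divided by the median of the probes used for scaling, was 3.27 ± 0.52 on the MMI arrays, from 2.74 to 4.13, and 5.15 ± 1.32 on the PTU arrays, from 2.99 to 7.07 (SD, n = 9 each). By an exact permutation test of arrays within times, two-sided, the difference had p = 0.00075 and, over the 7 array measures tested, adjusted p = 0.00525. The 10 were the brightest over the same 18 arrays, so a high level with either compound could bring a probe into the set. Since 5 of them measured 1 gene, rpl8.S, neither their median nor a count of their signs stands for 10 separate genes. The median change of these 10 probes was -0.61, -0.84 and -0.33 at the 3 times. For the mean over times it was -0.45, negative in 9 of the 9 tested there. That direction turned at 96 h with scaling on the median of all probes (0.21). It also turned with quantile normalization, where the mean change was 0.20 and 2 of 9 were negative. Quantile normalization gives the top ranks of every array the same values, so it cannot show a difference shared by the brightest probes. At 24 h and at 48 h every PTU array was above every MMI array of that time, and at 96 h the groups overlapped. With 3 arrays against 3, the exact permutation test cannot go below p = 0.1 at a single time. The paired spots of the MMI arrays agreed in rank more closely, with a mean rank correlation of 0.676 against 0.592 (exact permutation p = 0.00175, adjusted p = 0.00613). The number of probes above background, background SD, scaling factor, empty cells and share of cells at or below 0 gave adjusted p-values of 0.418 or more. The part of these array measures in the differences of bright probes, hmgn3.L among them, was not tested.

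**Figure D1:**
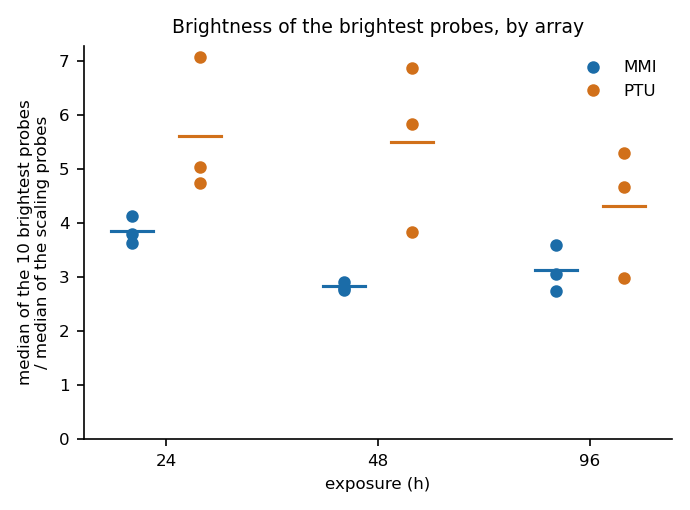
Median of the 10 brightest probes over the median of the scaling probes (a ratio, y axis) for each of the 18 arrays, by exposure time in hours (x axis), with bars at the group means. MMI arrays lie between 2.74 and 4.13 and PTU arrays between 2.99 and 7.07, with no overlap at 24 h and 48 h.

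Of those 10 probes, 5 measured rpl8.S, which encodes a component of the ribosome's large subunit. The others included hmgn3.L and gapdh.S, a glycolytic enzyme. Rpl8 and gapdh serve in many studies as references because their level is taken as steady. The scaled intensity of rpl8.S by probe 81 was 49430, 47788 and 46642 with MMI at 24 h against 129535, 129373 and 63615 with PTU. At 48 h it was 33050, 36122 and 29527 against 51002, 112687 and 88802. At 96 h it was 45849, 32293 and 32484 against 50072, 53399 and 35800, so the groups were apart at the earlier times and overlapped at 96 h. The change of this probe was -1.08, -1.27 and -0.33 at the 3 times, with no call (limma adjusted p = 0.229, 0.287 and 0.764).

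The 5 rpl8.S probes did not agree in size. For the mean over times their changes were -0.89 (probe 81), -0.85 (probe 273), -0.73 (probe 39), -0.45 (probe 493) and -0.22 (probe 929), none called, with limma adjusted p-values from 0.0695 to 0.723. Quantile normalization gives all arrays one distribution and so largely removes a shift shared by the brightest probes. It turned the sign of 4 of the rpl8.S probes to positive, at 0.20 for probe 81, 0.20 for probe 39, 0.27 for probe 493 and 0.25 for probe 929. Probe 273 stayed at -0.35. Scaling on the median of all probes turned probe 929 alone, to 0.06. No direction is therefore given for rpl8.S. Rpl35a.S, another large-subunit protein, had 3400, 4036 and 2210 units with PTU at 24 h and -45, 1974 and -888 with MMI, and its change of -1.93 was not called (adjusted p = 0.197). At 96 h its change had the opposite sign, 1.03, with 3006, 1100 and 4954 units with MMI against 397, 841 and 2174 with PTU, and was not called either (adjusted p = 0.393).

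For gapdh.S the scaled intensity at 48 h was 36745, 35456 and 28947 with MMI. With PTU it was 84461, 67055 and 111605, groups well apart under the main scaling. Before scaling, MMI replicate 3 was above PTU replicate 2, so the groups overlapped. The change of gapdh.S under the main scaling, -1.34, was not called (limma adjusted p = 0.282). The change was -0.93 with deposited values, -1.14 with the all-probe median and 0.02 after quantile normalization. That last step gives the top ranks of every array the same values, so it can show little difference in the brightest probes. At 96 h 2 of the 3 MMI values were empty and gapdh.S was not tested there. The list of glycolysis and energy metabolism held 5 probes, all above background on at least 16 arrays. Pkm.S (pyruvate kinase) and aldoc.L (aldolase C) showed mean changes of -0.06 (95% interval -0.46 to 0.33) and 0.08 (-0.38 to 0.55), so differences inside these bounds could not be resolved.

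Tubb4b.L, a beta-tubulin subunit of microtubules, was called at 96 h with less signal under MMI. At 24 h it had 14081, 9347 and 16824 units with MMI and 17464, 11380 and 16657 with PTU, and at 48 h 11225, 9465 and 10414 against 18484, 21004 and 29306. At 96 h the values were 13983, 10668 and 11165 with MMI against 25949, 33229 and 25649 with PTU. Under the main scaling the groups overlapped at 24 h and were apart at 48 h and 96 h. The change was -0.18, -1.08 and -1.20, called at 96 h and not at the earlier times (limma adjusted p = 0.898, 0.298 and 0.0419). That call was lost in 20 of the 30 other settings, with adjusted p up to 0.703 when arrays were scaled on the median of all probes, where the change was -0.66.

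**Figure D2:**
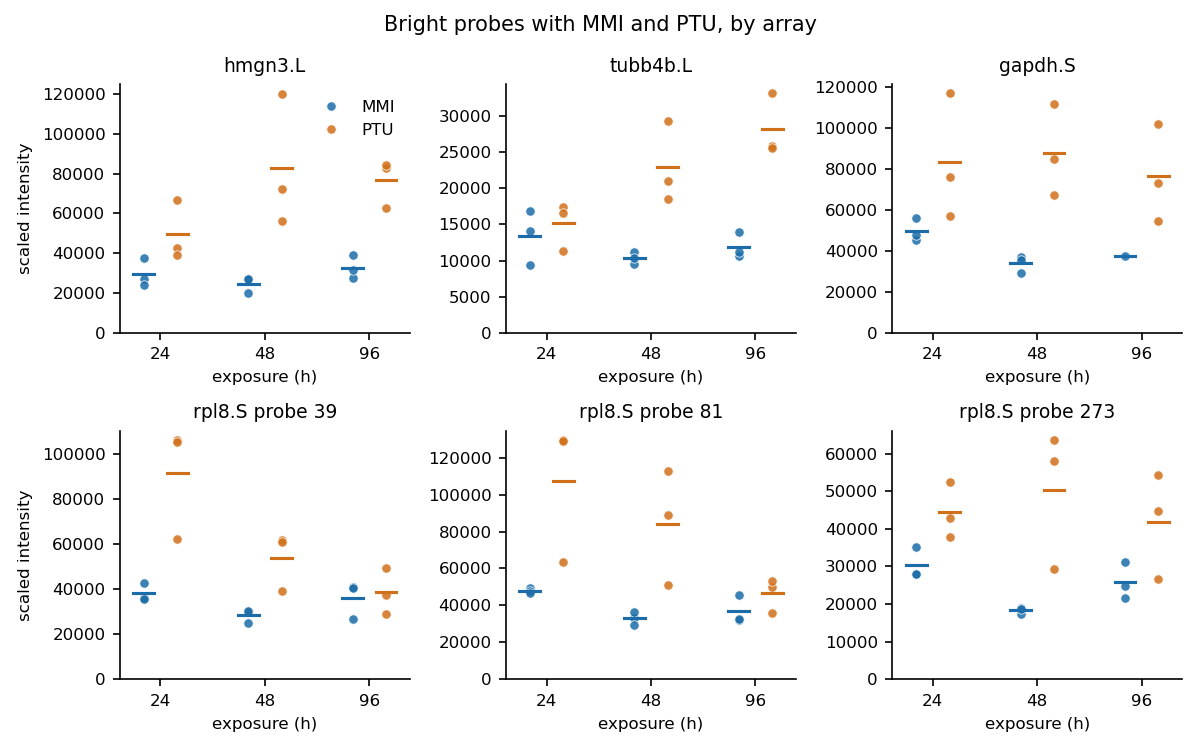
Scaled intensity (linear units, y axis) on each array for hmgn3.L, tubb4b.L, gapdh.S and 3 probes of rpl8.S, by exposure time in hours (x axis), with MMI in blue, PTU in orange and bars at the group means. For hmgn3.L every MMI array is below every PTU array, and for rpl8.S probes 39 and 81 the groups are apart at 24 h and 48 h and overlap at 96 h.

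The 15 probes called at 96 h were 7 with a gene name and 8 without. All 15 had groups that did not overlap at 96 h, as did 32 probes with MMI higher (7.27%) and 44 with MMI lower (10%) among the 440 tested. The calls used the spread shared by the 6 groups. With only the 6 arrays of 96 h in the fit, limma called 0 probes, with 57 at an unadjusted p under 0.05. Without MMI at 96 h replicate 1 the count was 9 (8 higher and 1 lower, 8 of them among the 15), and without MMI at 96 h replicate 2, the array with the most probes above background, it was 16. Scaling on the median of all probes left 11 calls, 10 higher and 1 lower.

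Among named genes, casp1.L showed more signal with MMI at 96 h. It encodes caspase 1, the protease that activates interleukin 1 beta in the inflammasome. Its 96 h intensities were 5269, 4766 and 4429 with MMI and 313, 567 and 1151 with PTU, none of the latter above background. At 24 h they were 3029, 3264 and 6450 against 9190, 4984 and 4000, and at 48 h 2555, 2833 and 4327 against 1534, 1056 and 3538, with overlap at both times. The PTU level was 6058 ± 2757 at 24 h and 677 ± 429 at 96 h, and the MMI level was 4248 ± 1910 and 4821 ± 422 (SD, n = 3). Changes over time within a compound were not tested, and the MMI minus PTU change of casp1.L was not called as different between times. At 96 h the change was 2.13 (95% interval 1.26 to 3.00, limma adjusted p = 0.00471), and the mean level was at least 2.89-fold higher with MMI. The bound compares the mean log2 level of the brighter group with that of the dimmer group, after each dimmer array was raised to its detection limit where the probe lay under it. Here and below, it allows for the detection limit but not for the spread between arrays, so it is not a confidence limit. The 95% interval can reach lower. The call held in 29 of 30 other settings and was lost with the 6 arrays alone (adjusted p = 0.0657). These settings included 18 fits that left out 1 array. Leaving out an array of 24 h or 48 h alters the spread but not the 96 h change, for this and the other 96 h calls. Casp1.L was also the 1 immune-cell marker on the array of 11 listed, with a level of 4429 to 5269 units on the MMI arrays and 313 to 1151 on the PTU arrays at 96 h. The part of immune cells in the pools was not tested.

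Map2k3 and epx.L, named after their values were seen, were also called with more signal under MMI at 96 h. Map2k3 encodes a kinase that activates p38 MAP kinases. It had 6815, 1494 and 2168 units with MMI and 962, -793 and 141 with PTU, and at 24 h and 48 h no array of either compound was above background. Its change was 1.97 (limma adjusted p = 0.00876), with a mean level at least 1.87-fold higher with MMI. All its arrays at 24 h were below 0, and those at 48 h lay between -84 and 75 units. They add almost no spread, so this adjusted p can be too small. With only the 6 arrays of 96 h in the fit, the limma adjusted p was 0.215. The call was lost in 4 of 30 other settings, among them the first spot alone (1.28, adjusted p = 0.0694) and the fit without MMI at 96 h replicate 1 (1.43, adjusted p = 0.0644). The peroxidase gene epx.L had 5794, 931 and 2805 units with MMI and -490, -601 and -750 with PTU, a change of 2.41 (adjusted p = 0.0205) and at least 1.72-fold. Its PTU arrays at 96 h share 1 floored value and add no spread, so its adjusted p can be too small as well. All its MMI cells at 24 h and 48 h were empty, and its call was lost in 9 of 29 other settings.

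The named genes called with less signal under MMI at 96 h were znf208.L, ldha.L, dnmt1.L and tubb4b.L. Ldha.L, the lactate dehydrogenase A subunit, had 1687, 1931 and 2480 units with MMI and 7492, 4614 and 6219 with PTU at 96 h. At 24 h it had 3047, 3504 and 4261 against 3684, 3253 and 3423, so the groups overlapped there and were apart at 96 h. Its change at 96 h was -1.33 (limma adjusted p = 0.0205), lost in 11 of 30 other settings, among them each spot alone (adjusted p = 0.112 and 0.220). Ldhb.S, the B subunit, had a change of 0.30 at 96 h and was not called.

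Dnmt1.L, the enzyme that copies DNA methylation to new strands, was near background. Its 96 h values were -26, 334 and 7 with MMI and 3054, 770 and 2311 with PTU, of which 2 were above background. The change was -1.79 (limma adjusted p = 0.0301), the PTU level was at least 1.34-fold higher, and the call was lost in 10 of 30 other settings. Znf208.L, a zinc finger gene, had -235, -350 and -966 units with MMI and 2427, 1352 and 1061 with PTU at 96 h. Because all 3 MMI arrays were below 0 and share 1 floored value, they add no spread, and its adjusted p of 0.00197 can be too small (change -1.82, PTU at least 1.17-fold higher). Probe 261, without a gene name, had 980, 2756 and 1580 units with MMI and 6784, 7003 and 8182 with PTU, a change of -1.80 (adjusted p = 0.0388) that lost its call in 13 of 30 other settings.

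**Figure D3:**
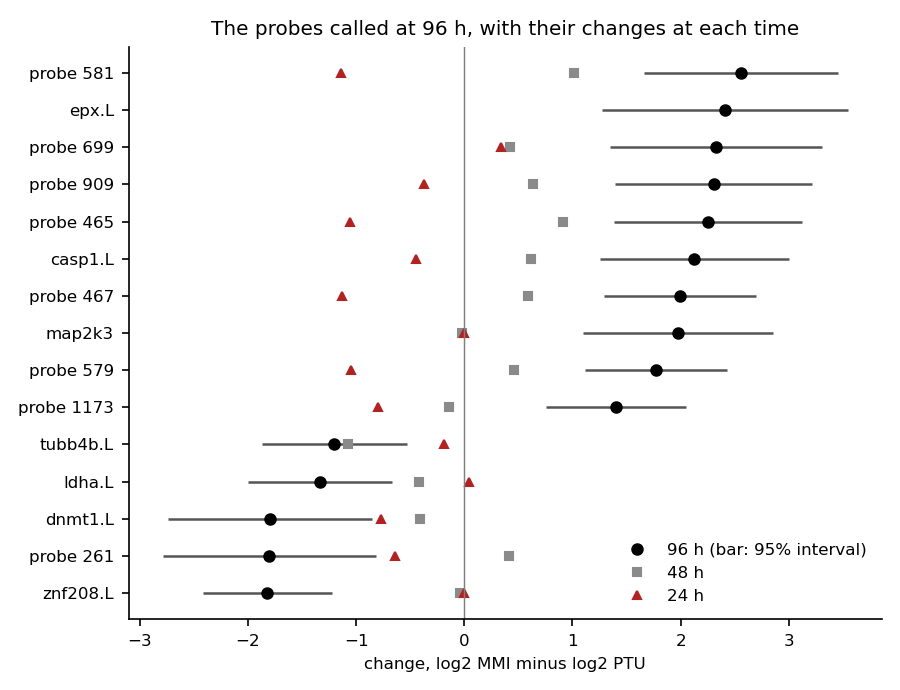
The 15 probes called at 96 h (rows) with their change in log2 units (x axis), as black points with 95% intervals, and the same probes' changes at 48 h (grey squares) and 24 h (red triangles). Probes 465, 467, 579, 581 and 1173 have changes between 1.40 and 2.56 at 96 h and between -1.14 and -0.79 at 24 h.

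A set of probes without a gene name changed sides between 24 h and 96 h. The test of a difference between times called 6 of 436 probes (1.38%), with 43 at an unadjusted p under 0.05. They were probes 465, 467, 579, 581 and 1173 and znf208.L. Over the 5 unnamed probes the PTU arrays ran from 5874 to 24706 units at 24 h and from 281 to 5883 at 96 h. The MMI arrays ran from 3141 to 11316 at 24 h and from 7267 to 17313 at 96 h. Each of the 5 was higher on every PTU array than on every MMI array with a value at 24 h (1 MMI cell of probe 1173 was empty), and lower on every PTU array at 96 h. Over all probes tested, 6.79% were apart with MMI lower at 24 h and 7.27% with MMI higher at 96 h. The 5 were picked by a test on these same values, so their separation is no further support. At 24 h 0 of 442 probes were called.

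Probe 581 shows the pattern. With MMI it read 6675, 6937 and 7858 units at 24 h, 7402, 10817 and 9898 at 48 h and 17313, 10461 and 9592 at 96 h. With PTU it read 24706, 21489 and 8342 at 24 h, 2002, 5867 and 6245 at 48 h and 1614, 1535 and 1470 at 96 h. The groups did not overlap at any time, with PTU above at 24 h and MMI above later. Its change was -1.14, 1.02 and 2.56, called at 96 h (limma adjusted p = 0.00197) and for the difference between times (F = 18.9, adjusted p = 0.00606). For probes 467 and 579 the F statistics were 21.9 and 20.5, with an adjusted p of 0.0056 for each.

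Probe 467 read 5544, 6585 and 8871 units with MMI at 24 h against 16119, 18139 and 13355 with PTU, and 10783, 10529 and 14205 at 96 h against 3338, 1609 and 2784. For probe 579 the values were 5804, 7580 and 6965 against 18603, 15044 and 11046 at 24 h, and 14041, 8871 and 11535 against 3424, 2662 and 2588 at 96 h. Both pairs of groups were apart at either time, in opposite directions. The changes at 24 h were -1.13 and -1.05, not called (adjusted p = 0.197 for each), and those at 96 h were 1.99 and 1.77 (adjusted p = 0.00197 and 0.00259). Probe 465 read 4785, 5449 and 3141 units with MMI and 13433, 11499 and 5874 with PTU at 24 h. At 96 h it read 9867, 7287 and 7267 against 2288, 281 and 1720, a change of 2.25 (adjusted p = 0.00345).

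Probes 909, 699 and 1173 were the other unnamed probes called with more signal under MMI at 96 h. Probe 909 read 10880, 17076 and 14491 units with MMI and 2263, 1433 and 3734 with PTU at 96 h, a change of 2.30 (limma adjusted p = 0.00408). Probe 699 read 5226, 4364 and 4836 against -323, 208 and 1904, a change of 2.33 (adjusted p = 0.00569). Probe 1173 read 16603, 14741 and 11843 against 5883, 4680 and 4566, a change of 1.40 (adjusted p = 0.0119). That call was lost in 6 of 30 other settings, among them deposited values (adjusted p = 0.193), the replicate block (0.0749) and the fit without MMI at 96 h replicate 1 (0.0655). The groups of all 3 were apart at 96 h. At 24 h the changes were -0.37 for probe 909, 0.34 for probe 699 and -0.79 for probe 1173.

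Several of these probes stand side by side in the array's numbering, 465 with 467 and 579 with 581, as do 699 and casp1.L (probe 697). Probe 261, called with less signal under MMI, stands beside mbp.S (probe 263). Their changes were -1.80 and -2.04 at 96 h, 0.41 and 1.05 at 48 h, and -0.64 and 0.24 at 24 h. The layout of the array is not given in the sources used here. Over all probes, the changes of neighbours in the numbering correlated at 0.02, 0.05 and 0.13 at the 3 times (392, 390 and 390 pairs). The part of position on the array was not tested. Dropping the offset to the 5th percentile of positive values left 1 probe called for the difference between times, and the generalised log2 without a floor left 0.

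**Figure D4:**
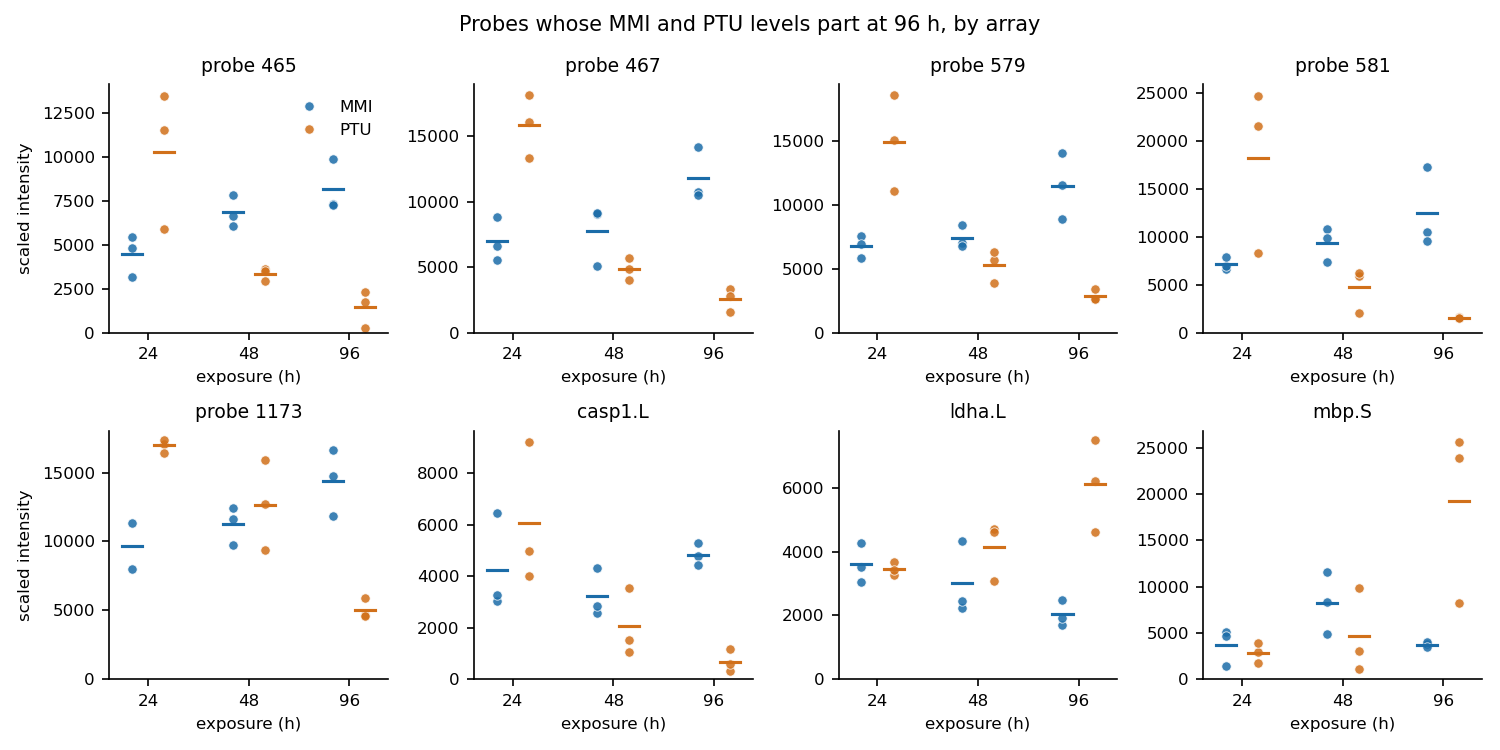
Scaled intensity (linear units, y axis) on each array, by exposure time in hours (x axis), for the 5 unnamed probes called for a difference between times and for casp1.L, ldha.L and mbp.S, with MMI in blue, PTU in orange and bars at the group means. In probes 465, 467, 579, 581 and 1173 PTU lies above MMI at 24 h and below it at 96 h.

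The genes of the thyroid hormone axis gave no call. The list held 13 genes on the array of 39 listed, receptors' partners, hormone-induced genes and hypothalamic regulators, and 0 passed the test at any time, against 3.41% of all probes at 96 h. Only nfib.L and fap.L were above background on 9 or more arrays, and klf9.L and crhr1.2.S were on none. The list's median change was 0.19, -0.23 and -0.20 at the 3 times, beside 0, -0.03 and -0.12 over all probes.

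Klf9.L and thibz.L encode, in that order, zinc-finger and leucine-zipper transcription factors that thyroid hormone induces directly in tadpoles. Klf9.L read between -2214 and 561 units on the 18 arrays and was never above background. Thibz.L was above background on 1 array, PTU at 96 h replicate 1, at 5163 units, and its mean change was -0.02 (95% interval -0.79 to 0.75). Nfib.L, a nuclear factor I gene, had 1717 ± 912 units with MMI and 1655 ± 2065 with PTU (SD, n = 9 each), a mean change of 0.29 (95% interval -0.52 to 1.10, limma adjusted p = 0.798). At these levels differences of about 1 on the log2 scale could not be told from none.

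Fap.L, a serine protease of tissue remodelling that is induced in metamorphosing Xenopus tails, was the axis gene with the strongest difference. With MMI it read 3129, -337 and 139 units at 24 h, 532, 2180 and 1193 at 48 h, and 55, 498 and -26 at 96 h. With PTU it read 2031, 1965 and 1983 at 24 h, 1744, 1410 and 5261 at 48 h, and 4051, 2327 and 1002 at 96 h. The groups overlapped at 24 h and 48 h and were apart at 96 h. Neither the change at 96 h, -1.87, nor that for the mean, -1.25 (95% interval -1.99 to -0.52), was called (limma adjusted p = 0.0969 and 0.0869).

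Crhbp.S, which binds and holds back corticotropin-releasing factor, the main thyrotropin releaser of tadpoles, read 160, 1230 and 1287 units with MMI and -691, -165 and -523 with PTU at 96 h. Its change of 1.19 was not called (limma adjusted p = 0.0687), and 1 array of the 18 was above background. Trh.S, thyrotropin-releasing hormone, had a mean change of 0.12 (95% interval -0.53 to 0.76). Rxrb.L, the retinoid receptor that pairs with thyroid hormone receptors, read 2011, 1379 and 1555 units with PTU at 24 h against 560, -561 and 1287 with MMI, with a change of -1.02 that was not called (adjusted p = 0.466).

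The 4 brain markers all had a negative change at 96 h, with a median of -1.03 against -0.12 over all probes, and 1 of them, tubb4b.L, was called. With scaling on the median of all probes msi1.S turned to 0.19, while mbp.S, tubb4b.L and gap43.S stayed negative under each scaling. The gut marker fabp2.L, 1 of 14 listed for liver, pancreas and gut, also had a negative change at 96 h, -1.55 (limma adjusted p = 0.0604), at 0 to 172 units with MMI and 728 to 1927 with PTU, where values under 0 count as 0. The part of other tissues in these differences was not tested. The summed level of the 4 ranged from 29581 to 36984 units on the MMI arrays and from 62435 to 91228 on the PTU arrays at 96 h. At 24 h it ranged from 30075 to 50556 and from 28447 to 45860. Gap43.S and tubb4b.L made up most of these sums, which were taken under the main scaling alone, so they do not stand for the 4 markers equally. In pools of whole brain, fewer cells of a type and less RNA per cell cannot be told apart.

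Mbp.S, the myelin basic protein of the sheath around axons, read 3757, 4011 and 3417 units with MMI and 8195, 23922 and 25589 with PTU at 96 h. At 24 h it read 5058, 4658 and 1435 against 2914, 1713 and 3877, and at 48 h 11569, 8336 and 4852 against 3058, 9856 and 1119. The groups overlapped at the earlier times and were apart at 96 h, where all PTU arrays were higher. The change at 96 h was -2.04 (95% interval -3.28 to -0.80) and missed the threshold (limma adjusted p = 0.0608).

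Gap43.S, a protein of growing axon tips, followed the same order at 96 h, with 15610, 14215 and 17198 units with MMI and 24247, 32456 and 30013 with PTU. Its change of -0.85 was not called (limma adjusted p = 0.225). Grb2.L, an adaptor that links growth factor receptors to Ras, read 659, 1199 and -536 units with MMI and 3228, 3473 and 1642 with PTU at 96 h. The groups were apart, and its change of -1.55 missed the threshold (adjusted p = 0.0512). At 24 h its change was 0.94, in the other direction, with 2430, 2034 and 1151 units with MMI against 276, 1157 and 661 with PTU, groups that overlapped. Of the axon growth, adhesion and myelin list 0 of 6 genes were called at any time, against 3.41% of all probes at 96 h. All 6 had negative changes at 96 h, except that dcc.L, a netrin receptor, was at 0.07 after quantile normalization, and 258 of the 440 probes tested were negative there.

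Of the 6 neural progenitor genes 0 were called at any time, beside 0%, 0% and 3.41% of all probes at the 3 times. Id2.L, an inhibitor of basic helix-loop-helix factors that holds back neuronal differentiation, had 2271 ± 1248 units with MMI and 2241 ± 792 with PTU (SD, n = 9 each). Msi1.S, the Musashi protein, which binds RNA in neural stem cells, had 2988 ± 1253 and 3270 ± 1176. Their mean changes were -0.06 (95% interval -0.55 to 0.44) and -0.15 (-0.71 to 0.41), so differences inside these bounds could not be resolved. Pcna.S, the sliding clamp of DNA replication, had a mean change of 0.19 (-0.29 to 0.67), and of the 19 cell cycle genes 0 were called at any time (3.41% of all probes at 96 h), with a median mean change of -0.06, as over all probes (-0.06).

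Among hypothalamic and pituitary peptides and receptors, 0 of 15 genes were called at any time, beside the same 3.41% of all probes at 96 h and 0% earlier. Gh1.S, growth hormone, read 3827, 4921 and 3308 units with MMI and 10140, 6935 and 6923 with PTU at 24 h, groups apart. At 48 h it read 4855, 4188 and 2864 against 8777 and 8125, with a PTU cell empty, groups again apart, and a change of -1.01 that was not called. At 96 h it read 8419, 2496 and 7405 against 2131, 3080 and 11005, with overlap. Its change at 24 h was -0.89 and was not called (limma adjusted p = 0.518), and prl.1.L, the other pituitary marker, had 0.06. The part of pituitary tissue in the pools was not tested. Npy.S, neuropeptide Y, had a mean change of 0.50 and was not called (adjusted p = 0.399).

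The other lists gave few calls. Of 10 kinase and signalling genes 1 was called at 96 h (map2k3), of 5 apoptosis genes 1 (casp1.L), of 5 glycolysis and energy probes 1 of the 4 tested (ldha.L), of 4 cytoskeleton genes 1 (tubb4b.L) and of 12 chromatin probes 1 (dnmt1.L), beside 3.41% of all probes. The lists of nuclear receptors (9 genes), Wnt pathway (7), forebrain regulators (5), synapse and channels (10), TGF-beta and BMP signalling (6), matrix and proteases (11), DNA repair (4), stress (2) and drug metabolism (2) held 0 called members at any time.

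At 24 h the smallest p-values belonged to yes1.L, rpl8.S probe 39, rpl35a.S and probes 601, 887 and 467, all with a limma adjusted p of 0.197. Yes1.L, a Src-family kinase, read 22, -272 and 179 units with MMI and 624, 2236 and 1292 with PTU, of which 1 array was above background. Probe 601 read 1339, 2942 and 4125 units with MMI and 1219, -770 and -314 with PTU. Groups of 29 probes with MMI higher (6.56%) and 30 with MMI lower (6.79%) did not overlap at 24 h. At 48 h they were hmgn3.L, rpl8.S probes 273 and 81, gapdh.S, tubb4b.L and probe 789, with adjusted p-values from 0.0735 to 0.492. There 24 probes with MMI higher (5.44%) and 42 with MMI lower (9.52%) had groups that did not overlap.

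Signs and sizes of the changes were compared between times. Of 436 probes, 73 had less signal with MMI at all 3 times and 46 more, together 27.3%, and among the 92 probes above background on at least 9 arrays 32 kept one sign. Across these 92 probes the changes at 48 h and 96 h correlated at 0.51 (Pearson) and 0.55 (Spearman). For 24 h and 48 h the values were 0.13 and 0.06, and for 24 h and 96 h -0.17 and -0.13. Over all 436 probes the values were 0.21 and 0.18 for 48 h and 96 h, 0.10 and 0.06 for 24 h and 48 h, and -0.08 and -0.03 for 24 h and 96 h. These correlations run across probes of shared arrays, which are not independent replicates, and each time had its own arrays of both compounds.

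**Figure D5:**
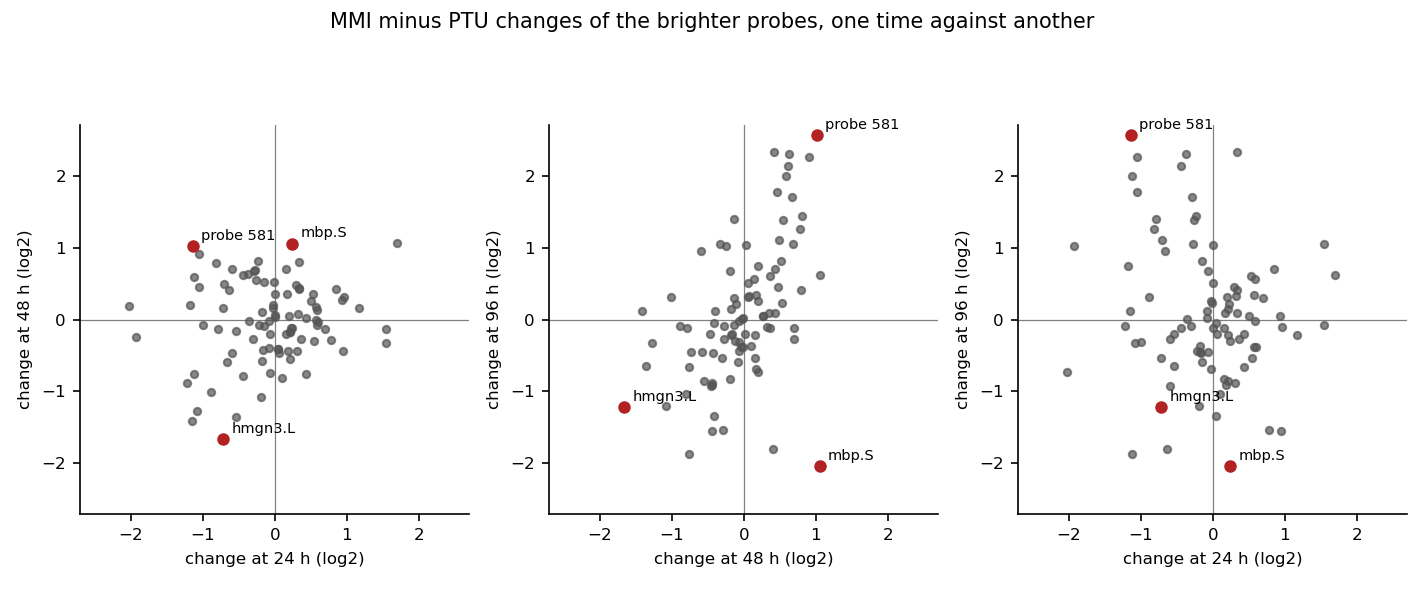
Change in log2 units (MMI minus PTU) of the 92 brighter probes at one time (x axis) against another (y axis), 1 point per probe, with hmgn3.L, mbp.S and probe 581 in red. The Pearson correlation is 0.51 for 48 h against 96 h, 0.13 for 24 h against 48 h and -0.17 for 24 h against 96 h.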

How the data were processed

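The deposited table holds whole-number intensity per spot, on a linear scale, and its negative values show that a background had been subtracted by the authors. Per the labels' protocols, brain RNA was made into 32P-labelled cDNA and read in 1 channel. The sources used here do not give the background method or any scaling by the authors. Of 16164 cells on the 18 arrays 401 were empty. A gene was named for 250 of 449 probes (243 genes), and 199 are called by ID. The number of arrays and the signal over background limit precision.

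Paired spots were averaged, arrays scaled, values below 0 set to 0, and log2 taken after adding the offset. The background SD is the root mean square of an array's negative probe values. A probe needed 2 values per group. limma 3.58.1 in R 4.3.3 (lmFit, eBayes) fitted 6 groups over 18 arrays, with 12 residual and 5.53 prior degrees of freedom. All adjusted p-values are from limma unless an exact permutation test is named. The procedure was tested on simulated data, with changes set in probes over the median level. Of 20 with a change of 1 on the log2 scale, 1 was called at 24 h, 3 at 48 h and 5 at 96 h. Of 20 with a change of 2, the calls were 16, 17 and 14. False calls were 0, 0 and 3. Figures used matplotlib 3.10.9.

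The comparison, gene lists and markers were chosen with earlier results of these data known, and lists were extended by gene function after the array's symbols were seen. Named probes were up to 6 higher and 6 lower calls per time, or the 6 smallest p-values where fewer than 6 passed. For the mean over times they were the 10 smallest p-values, and for the difference between times the 6 smallest. Probes apart in one direction at all times, the 6 named probes of highest level, all thyroid axis genes and the members of other lists above background on most arrays were added. Genes such as grb2.L, map2k3, epx.L, prl.1.L and fabp2.L named outside this rule were chosen after their values were seen or as markers. Deviations of same-numbered MMI and PTU arrays from their group means, over 97 probes, correlated from -0.25 to 0.23. Not all of these correlations exceeded 0.1, so replicate numbers were not taken as pairs. No reference sequence was used.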

Additional observations from a re-analysis of the deposited data

Results flagged for a closer look

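For 6 probes the MMI minus PTU change differed between times by the moderated F test over all 436 probes. Probe 467 had changes of -1.13, 0.59 and 1.99 at 24 h, at 48 h and at 96 h (limma adjusted p = 0.0056), and probe 579 had -1.05, 0.46 and 1.77 (adjusted p = 0.0056). The changes of probe 581 were -1.14, 1.02 and 2.56 (adjusted p = 0.00606), and those of probe 465 were -1.06, 0.91 and 2.25 (adjusted p = 0.0114). Probe 1173 went from -0.79 through -0.14 to 1.40 (adjusted p = 0.0411). Znf208.L had changes of 0, -0.04 and -1.82 (adjusted p = 0.0245), with all 9 MMI arrays below 0. Its PTU arrays read -1877, -887 and -19 units at 24 h and 56, -562 and -1495 at 48 h. Values below 0 share 1 floored value and add almost no spread, so this adjusted p can be too small. No cause was tested for any of the 6 probes.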

How the results depend on the processing

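Beside the values reported, each single-time comparison was refitted under 30 other settings. The number of probes called at 24 h was 0 and became 1 with the first spot alone and 1 with an intensity trend in eBayes. At 48 h the count of 0 became 1 with only probes above background on at least 3 arrays, 1 with all 35 arrays in the fit and 5 with the trend. At 96 h the 15 calls became 9 with the replicate block and 0 with only the 6 arrays compared. The fold rule of the labels, which has no test, marked 37, 18 and 55 probes at the 3 times. For the mean over times the 1 call became 5 with the first spot and 5 with the trend, 4 with the filter, 3 with all arrays, and 0 with the second spot, the generalised log2, deposited values, the all-probe median, quantile normalization and the replicate block. For the difference between times the 6 calls became 1 with the 5th percentile offset, 0 with the generalised log2, 2 with the all-probe median and 10 with the trend. Leaving out each array in turn gave 0 to 1 calls at 24 h (1 without MMI 24 h replicate 2), 0 to 2 at 48 h (2 without PTU 48 h replicate 1), 9 to 20 at 96 h (9 without MMI 96 h replicate 1), 1 to 13 for the mean (13 without PTU 96 h replicate 3, and 2 to 4 without MMI 24 h replicate 1 or 3, PTU 24 h replicate 2 or 3, or PTU 48 h replicate 1) and 4 to 9 for the difference.

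Deviations of same-numbered arrays from their group means correlated from -0.25 to -0.02 at 24 h, 0.06 to 0.11 at 48 h and 0.10 to 0.23 at 96 h. For differently numbered arrays the ranges were -0.28 to 0.36, -0.20 to 0.13 and -0.32 to 0.13. The ranges overlapped at each time, so the pairing has no clear basis. With the replicate block the 9 calls at 96 h were all among the 15, and the difference between times gave 4.

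Among 37 named changes, only the 15 calls at 96 h and the 1 for the mean could lose a call. For the 37 together, 1094 alternative values were computed, many of them from fits that left out 1 array. Of these, 964 kept direction and side of the threshold, 88 lost a call, 38 gained one and 4 changed sign. All 4 came with quantile normalization, gapdh.S at 48 h (0.022), rpl8.S probe 81 at 48 h (0.23) and for the mean (0.20), and rpl8.S probe 39 for the mean (0.20). The mean change of hmgn3.L lost its call under 7 of 29 settings, none of them among the 18 that left out 1 array. It lay between -1.28 and -0.42 in all 29. Without MMI 96 h replicate 1 the 96 h calls on map2k3, epx.L, probe 1173, ldha.L, dnmt1.L, tubb4b.L and probe 261 were lost. Those on ldha.L, dnmt1.L, epx.L, tubb4b.L and probe 261 were also lost without PTU 96 h replicate 1 or 3, and all of these but ldha.L without MMI 96 h replicate 3. Without PTU 96 h replicate 2 epx.L, tubb4b.L and probe 261 lost theirs, and tubb4b.L also did without MMI 96 h replicate 2. Of the arrays of other times, PTU 48 h replicate 1 decided probe 261, and MMI 48 h replicates 1 and 2, PTU 24 h replicate 3 and PTU 48 h replicate 2 each decided tubb4b.L. The median change of all probes moved at 96 h from -0.12 to 0.07 with the all-probe median and to 0 with quantile normalization, and at 48 h from -0.03 to 0.09 with deposited values. Dim probes are limited by their signal over background, since 51 of 449 were above it on no array.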
